A study of Mus musculus with 59 samples.

Results

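Of the 55341 genes counted in mouse brown adipose tissue (BAT), 9 are followed here, namely those that code for enzymes of the tricarboxylic acid (TCA) cycle or of the entry of pyruvate into it (Cs, Idh2, Idh3a, Ogdh, Suclg1, Fh1, Mdh2, Pdha1 and Pcx). They were taken by name from the count tables. All 9 were detected in each of the 59 mice and passed the filter on low counts in every comparison. The mice were males of the C57BL/6J strain, 8 to 12 weeks old, and the RNA of the whole tissue was sequenced in 3 experiments. In the thyroid hormone (TH) experiment, wild-type (WT) mice received PTU (propylthiouracil, a drug that blocks the synthesis of TH) or PTU+TH, with 4 mice on PTU and 4 mice for each TH time of 3, 6, 12 and 24 h. In the same experiment, 5 BATKO mice received PTU and 5 received PTU+TH, at the TH time of 24 h. For its BAT data the paper lists PTU in the food for 2 weeks and a single intraperitoneal injection of the thyroid hormones T3 and T4. The TH times are therefore read as hours after this injection, also where the text below says 24 h of TH. In the temperature experiment, 3 CTRL and 4 BATKO mice were kept at 4 °C, and 4 CTRL and 5 BATKO mice at 30 °C. In the diet experiment, 4 CTRL and 2 BATKO mice were fed chow, and 4 CTRL and 3 BATKO mice a high-fat diet (HFD). The names of the deposited tables give 24 h for the cold and 3.5 days for the diet. The study concerns gene regulation by TH, but neither the labels nor the text of the study describe the genetic change carried by BATKO mice, so that no targeted gene could be checked, and the genotype is named below as the labels give it.

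The TCA cycle takes place in the mitochondrial matrix, where it oxidizes acetyl-CoA to carbon dioxide and passes electrons to the respiratory chain through NADH and FADH2. Pyruvate enters as acetyl-CoA through the pyruvate dehydrogenase complex, or as oxaloacetate through pyruvate carboxylase, which refills the cycle. In brown adipocytes the respiratory chain is uncoupled from ATP synthesis by UCP1, so that fuel oxidized in the cycle is released as heat. Pdha1 codes for the alpha subunit of the first enzyme of the pyruvate dehydrogenase complex, and Pcx for pyruvate carboxylase. Cs (citrate synthase) joins acetyl-CoA and oxaloacetate. Idh3a codes for the catalytic subunit of the NAD-dependent isocitrate dehydrogenase of the cycle, while Idh2 codes for a separate mitochondrial isocitrate dehydrogenase that uses NADP. Ogdh codes for the first enzyme of the oxoglutarate dehydrogenase complex, Suclg1 for the alpha subunit of succinyl-CoA ligase, Fh1 for fumarate hydratase, and Mdh2 for the mitochondrial malate dehydrogenase, which regenerates oxaloacetate.

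In the GENCODE annotation of GRCm38, Pdha1 lies on chromosome X (160122209 to 160138413, minus strand), Pcx on chromosome 19 (4510472 to 4621752, plus strand) and Cs on chromosome 10 (128337734 to 128362479, plus strand). Idh3a lies on chromosome 9 (54586334 to 54604661, plus strand) and Idh2 on chromosome 7 (80094846 to 80115392, minus strand). Ogdh is on chromosome 11 (6291633 to 6356642, plus strand), Suclg1 on chromosome 6 (73248382 to 73276911, plus strand), Fh1 on chromosome 1 (175600374 to 175625635, minus strand) and Mdh2 on chromosome 5 (135778480 to 135790398, plus strand). Exons of Pdha1 share positions with Map3k15 on the opposite strand, and exons of Fh1 with Kmo on the opposite strand. The strand setting of the counting is not given in the sources used here, so that reads at these positions cannot be assigned to one gene with certainty.

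RefSeq promoter sequences (GRCm38.p6, 250 bases before to 50 after each start) were found for 8 of the 9 genes, with 6 entries for Ogdh, 2 for Pcx, 1 for each of the others and none for Idh3a. Both strands were searched for the TH receptor half-site AGGTCA, for a pair of these half-sites in the same orientation with 4 bases between them (DR4, the element usually bound by the TH receptor with RXR), for the oestrogen-related receptor motif TCAAGGTCA (which contains the half-site), and for TGACGTCA, CCGGAAGT and GCGCATGCG, the motifs of CREB, ETS factors and NRF1. DR4 was in none of the 14 entries of these genes and in 0.0152% of the 32851 promoters of the table. AGGTCA was in 1 entry of Pcx, 1 of Ogdh and that of Fh1, against 16.3% of all promoters. TGACGTCA, which reads the same on both strands, was in 3 entries of Ogdh and in the promoter of Mdh2, and GCGCATGCG was in 2 entries of Ogdh. The entries of Ogdh overlap, so that its 3 matches of TGACGTCA are 1 site in the genome and its 2 of GCGCATGCG another. Counted per gene, 2.03% of all genes in the table held TGACGTCA and 1.95% GCGCATGCG in at least 1 entry. These matches are descriptions of the letters in these windows. The 250 bases before the start are printed for 3 genes on the plus strand whose counts rose both with TH and in the cold, with any TGACGTCA in capitals. Those of Ogdh (the first of its 6 entries) are at chr11:6291347-6291596, those of Mdh2 at chr5:135778399-135778648, and those of Suclg1 at chr6:73248255-73248504.
Ogdh: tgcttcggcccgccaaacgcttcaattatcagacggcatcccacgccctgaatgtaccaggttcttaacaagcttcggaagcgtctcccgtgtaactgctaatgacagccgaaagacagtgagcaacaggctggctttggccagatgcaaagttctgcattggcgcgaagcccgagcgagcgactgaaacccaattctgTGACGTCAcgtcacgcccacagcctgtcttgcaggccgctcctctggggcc
Mdh2: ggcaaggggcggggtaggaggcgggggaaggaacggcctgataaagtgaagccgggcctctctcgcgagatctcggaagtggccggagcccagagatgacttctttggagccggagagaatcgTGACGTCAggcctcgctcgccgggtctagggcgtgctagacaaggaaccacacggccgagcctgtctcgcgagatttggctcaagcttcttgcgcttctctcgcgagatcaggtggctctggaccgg
Suclg1: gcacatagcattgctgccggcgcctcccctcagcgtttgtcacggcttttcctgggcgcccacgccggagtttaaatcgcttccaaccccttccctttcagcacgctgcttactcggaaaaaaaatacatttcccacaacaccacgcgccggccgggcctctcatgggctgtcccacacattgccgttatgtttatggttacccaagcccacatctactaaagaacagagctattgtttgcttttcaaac
In Ogdh the motif starts 51 bases and in Mdh2 127 bases before the start, and Suclg1 has no capitals because none of the motifs searched was in its window. Cs also lies on the plus strand and rose both with TH and in the cold. Its window held none of these motifs either and is not printed.

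The total count per mouse was 7805938 to 18073627 in the TH experiment, 8008348 to 12887313 in the temperature experiment and 7612059 to 11533900 in the diet experiment, and genes of the mitochondrial genome took 39.2 to 55.7% of it. Idh2, which had the lowest count of the 9 genes in any mouse, still had 391 to 2539 reads per mouse. Pcx had a lower mean level than Idh2 in CTRL mice at 30 °C and on both diets, and in BATKO mice on HFD. Levels are given as CPM, the counts scaled to a common library size, after TMM normalization within each experiment, and levels are not tested across experiments, which were normalized separately. The 6 brown adipocyte markers (Ucp1, Cidea, Cox8b, Adipoq, Plin1 and Fabp4) summed to 6202 to 30582 CPM, and none was at 0. The 8 skeletal muscle markers varied more between mice than any other list, from 0.719 to 8194 CPM, and exceeded 1500 CPM in 7 mice (mouse 12 of WT at 6 h, mouse 11 of BATKO at 4 °C, mice 13 and 17 of BATKO at 30 °C, mice 20 and 21 of CTRL at 30 °C, and mouse 3 of CTRL on chow). Results that changed without these mice are given with both values. In bulk tissue, fewer cells of a type and less RNA per cell cannot be told apart.

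Differences are given as log2 fold changes with their standard error (SE) from the quasi-likelihood test of edgeR, and a gene is said to rise or fall where the adjusted p, corrected over all genes tested (Benjamini-Hochberg), is below 0.05. Before TH, the 9 genes spanned a wide range of levels per length. In PTU-treated WT mice, in CPM per kilobase of exon, Idh3a (306 ± 27.6) and Pdha1 (295 ± 12.9) were highest, and their ranges overlapped with each other. Cs followed at 255 ± 28.5, overlapping with Pdha1, and then Ogdh at 171 ± 13.6. Mdh2 (90.1 ± 3.61) and Fh1 (71.1 ± 1.22) formed a lower tier. Suclg1 (47.0 ± 4.70) and Pcx (36.9 ± 6.68) overlapped, and Idh2 was lowest at 20.9 ± 2.55. The levels per length of the NAD-dependent and the NADP-dependent isocitrate dehydrogenase were thus at opposite ends of this list. In CTRL mice at 30 °C the order was narrower, with Cs at 285 ± 52.9, Idh3a at 252 ± 35.1, Idh2 at 52.1 ± 1.56 and Pcx lowest at 27.9 ± 2.03 CPM per kilobase.

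In WT mice TH raised Suclg1, Idh3a and Ogdh from the first 3 to 6 h on, and neither of the genes for pyruvate entry passed the test. At 3 h 1 of the 9 genes had risen (11.1%), where 9.19% of all genes passed the test in either direction, and at 6 h 3 genes had risen (33.3%, against 23% of all genes). At 12 h it was 4 genes (44.4%, against 25.7%) and at 24 h it was 5 (55.6%, against 32.7%), and none fell at any of these times. The 5 genes that rose at 24 h were Suclg1, Idh3a, Ogdh, Cs and Mdh2. The median log2 fold change of the 9 genes at 24 h was 0.29, against 0.01 for all genes. These 4 comparisons share the same 4 PTU-treated mice.

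Suclg1 was the first to pass the test, and at 24 h its fold change was the largest of the 9. The 4 PTU-treated WT mice had 223, 185, 226 and 234 CPM. At 3 h the values were 296, 286, 275 and 298 CPM, and at 24 h they were 496, 532, 444 and 465 CPM. Every mouse at 3 h was already above every PTU-treated mouse, and every mouse at 24 h was above every mouse at 3 h. The log2 fold change was 0.39 ± 0.10 (SE), adjusted p = 0.0175 at 3 h. It was 0.52 ± 0.10 at 6 h and 0.81 ± 0.10 at 12 h. By 24 h it was 1.16 ± 0.10 (SE), adjusted p = 3.22e-08. The 3 h call was lost without PTU-treated mouse 3 (adjusted p = 0.0761), which had the lowest Suclg1 of its group, and in the fit of all 30 mice of the experiment (adjusted p = 0.0898). Suclg1 was also the 1 gene of the 9 that rose between 12 h and 24 h, by 0.35 ± 0.10 (SE), adjusted p = 0.0308, where 11.4% of all genes passed the test. That late step was lost in the fit restricted to the groups compared (adjusted p = 0.0847), without the filter on low counts (0.081), in the fit of all 30 mice (0.137), and when mouse 19, 20 or 21 of the 12 h group or mouse 24 or 26 of the 24 h group was left out (adjusted p up to 0.0991). None of the 9 genes passed the test between 3 h and 6 h, where 2.8% of genes did, or between 6 h and 12 h, where 2.95% did. At an unadjusted p under 0.05 there was 1 of the 9 between 3 h and 6 h, against 2132 of all 13003 genes (with DESeq2, 0 of the 9 passed). Between 6 h and 12 h there were 5 of the 9 at this unadjusted threshold, against 2470 of 13003. With DESeq2, Idh3a rose between 6 h and 12 h (log2 fold change 0.34, adjusted p = 0.0232).

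Idh3a passed the test from 6 h on. PTU-treated WT mice had 1549.7, 1641, 1352 and 1657 CPM. The mice at 6 h had 2027, 2034, 2345 and 1937 CPM, those at 12 h 2683, 2201, 2599 and 2844 CPM and those at 24 h 3111, 2739.6, 2838 and 2799 CPM. From 6 h on, no treated mouse was as low as the highest PTU-treated mouse. The difference was 0.20 ± 0.11 (SE), adjusted p = 0.26 at 3 h, where groups overlapped, and 0.41 ± 0.11 (SE), adjusted p = 0.00749 at 6 h. It then was 0.74 ± 0.11 at 12 h and 0.89 ± 0.11 (SE), adjusted p = 2.08e-06 at 24 h. Ogdh also passed the test from 6 h on. It had 857, 887, 983 and 1012 CPM in PTU-treated mice, 1452, 1152, 1216 and 1748 CPM at 6 h and 1549.8, 1464, 1477 and 1377 CPM at 24 h. The mice at 6 h were spread widely but all stood above the PTU-treated mice. The log2 fold change of Ogdh was 0.56 ± 0.14 (SE), adjusted p = 0.00577 at 6 h. It was 0.54 ± 0.14 at 12 h and 0.65 ± 0.14 (SE), adjusted p = 0.00107 by 24 h.

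**Figure D1:**
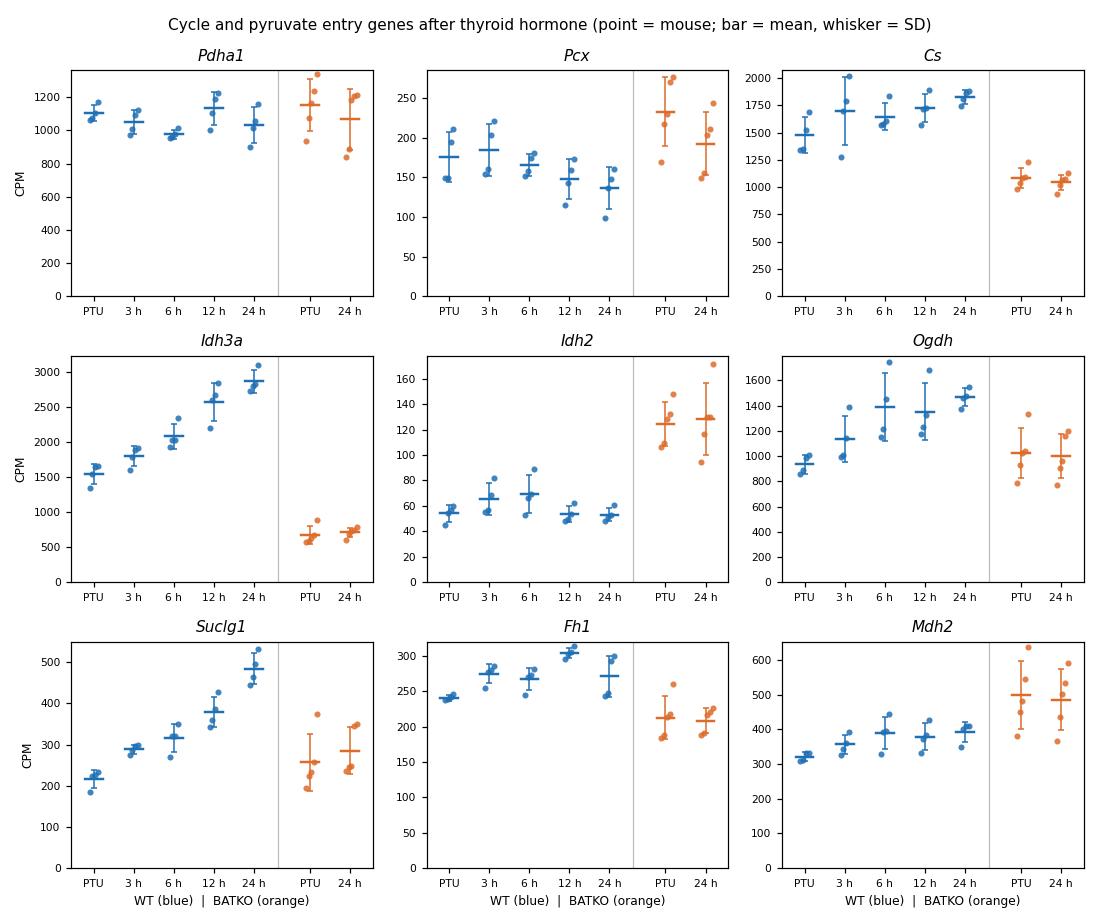
CPM (TMM-normalized, linear axis from 0) of each of the 9 genes in the TH experiment, with WT mice on the left of each panel and BATKO mice on the right. Each point is a mouse, the bar is the mean and the whisker the SD. Suclg1 climbed from a mean of 217 to 484 CPM in WT mice, while its BATKO means were 257 and 285 CPM.

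The other cycle genes had smaller estimates at 24 h. Cs had 1474 ± 164 (SD, n = 4) CPM in PTU-treated mice and 1826 ± 62.2 (SD, n = 4) CPM at 24 h, a log2 fold change of 0.31 ± 0.12 (SE), adjusted p = 0.0472. Mdh2 had 321 ± 12.9 (SD, n = 4) and 393 ± 28.7 (SD, n = 4) CPM, with 0.29 ± 0.10 (SE), adjusted p = 0.0321. Both calls were near the threshold. That of Cs was lost when mouse 2, 3 or 5 on PTU or mouse 24, 26, 27 or 28 at 24 h was left out (adjusted p up to 0.134) and without the filter on low counts (0.0986). It was also lost without the mouse with high muscle markers (log2 fold change 0.31, adjusted p = 0.0544), a mouse at 6 h that is in neither group compared. That of Mdh2 was lost when mouse 2, 3 or 4 on PTU or mouse 24, 26 or 27 at 24 h was left out (adjusted p up to 0.08), without the filter (0.0997) and in the fit of all 30 mice (0.106). Fh1 rose at 12 h (0.35 ± 0.08 SE, adjusted p = 0.00433), with 246, 242, 239 and 237 CPM on PTU and 303, 314, 297 and 305 CPM at 12 h. At 24 h Fh1 was 299.8, 293, 248 and 244 CPM, a range that overlapped with the PTU-treated mice (0.17 ± 0.08 SE, adjusted p = 0.136). Idh2 had 56.8, 44.7, 60.1 and 54.3 CPM on PTU and 48.0, 51.1, 60.7 and 52.9 CPM at 24 h, a difference of -0.02 ± 0.15 (SE), adjusted p = 0.921. At 6 h Idh2 was 0.34 ± 0.15 above PTU (adjusted p = 0.0944), and it passed the test without mouse 12, the one with high muscle markers (0.46, adjusted p = 0.0291).

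Neither gene of pyruvate entry passed the test at any time with all mice. Pdha1 was 1106, 1075, 1062 and 1170.2 CPM on PTU and 1159, 1056, 897 and 1016 CPM at 24 h (-0.10 ± 0.09 SE, adjusted p = 0.444). At 6 h all 4 mice had less Pdha1 than the PTU-treated mice, 953 to 1012 against 1062 to 1170.2 CPM (-0.19 ± 0.09 SE, adjusted p = 0.143). Pcx was 149, 148, 210.3 and 194 CPM on PTU and 98.9, 161, 148 and 137 CPM at 24 h (-0.37 ± 0.16 SE, adjusted p = 0.0809), and the groups overlapped. Without mouse 26 at 24 h, Pcx passed the test (-0.46, adjusted p = 0.0482). The log2 ratio of Pcx to Pdha1 in CPM, which is read only between groups because the genes differ in length, ranged from -2.90 to -2.34 on PTU and from -3.55 to -2.60 at 24 h. As a share of the counts of nuclear genes, the 9 genes together went from 1.17 to 1.26% on PTU to 1.69 to 1.85% at 24 h, with no overlap.

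Marker genes of several cell types moved with TH in part. At 3 h Ucp1 and the erythroid gene Hba-a1 rose, and the sums of the white adipocyte (55.6 to 101 CPM against 104 to 117 CPM on PTU), endothelial (314 to 329.9 against 285 to 306 CPM) and stromal markers (104 to 122 against 69.0 to 101 CPM) did not overlap with PTU. At 6 h Ucp1 and Cox8b rose and Plin1 fell, and the brown adipocyte sum was 18669.8 to 21441 CPM, all above PTU. At 12 h Ucp1 and Lep rose and Adipoq, Plin1, Fabp4 and the endothelial gene Cdh5 fell, and the endothelial sum was 215 to 273 CPM, all below PTU. Of the 6 brown adipocyte markers, 1 rose (Ucp1) and 4 fell (Cidea, Adipoq, Plin1 and Fabp4) at 24 h, and their sum was 14802 to 16588 CPM on PTU and 13304 to 20282 CPM at 24 h. All 8 muscle markers were higher on average at 24 h but none passed the test, and their sum was 62.1 to 639 CPM on PTU and 264 to 1137 CPM at 24 h. Of the white adipocyte markers Lep rose and Retn fell, with sums of 104 to 117 CPM on PTU and 53.7 to 105 CPM at 24 h. Of the immune markers all 4 tested were higher on average and 1 rose (Cd68), with sums of 23.3 to 38.5 and 25.6 to 48.2 CPM, and of the 3 endothelial markers Kdr rose and Pecam1 fell, with sums of 285 to 306 and 273 to 306 CPM. The part of all these markers in the results was not tested. No mouse of either group exceeded 1500 CPM of muscle markers, and without the 1 WT mouse that did (at 6 h) Suclg1, Idh3a, Ogdh and Mdh2 still rose at 24 h.

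In BATKO mice none of the 9 genes passed the test after 24 h of TH, as was the case for all 14178 genes tested (0% called, with both edgeR and DESeq2). At an unadjusted p under 0.05 there were 673 genes, and 0 of the 9. Suclg1 was 257, 225, 375, 194 and 234 CPM in PTU-treated BATKO mice and 344, 244, 350.0, 236 and 249 CPM at 24 h, and the groups overlapped (0.15 ± 0.14 SE, adjusted p = 0.97). Idh3a was 679.8, 571, 895, 584 and 631 CPM and 745, 685, 731, 608 and 785 CPM (0.08 ± 0.11 SE, adjusted p = 0.986). Ogdh was 1042, 931, 1336, 787 and 1026 CPM and 1198, 963, 1158, 774 and 908 CPM (-0.03 ± 0.14 SE, adjusted p = 0.998). The groups with and without TH overlapped for each of these genes. The largest estimate among the 9 was that of Pcx (-0.27 ± 0.16 SE, adjusted p = 0.963), from 232 ± 43.7 (SD, n = 5) to 192 ± 39.5 (SD, n = 5) CPM.

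The difference between the genotypes in the TH response was tested as an interaction, in which 12.3% of all genes and 3 of the 9 passed the test. All 3 had a smaller response in BATKO mice. The interaction, as the BATKO minus the WT log2 fold change, was -1.01 ± 0.20 (SE), adjusted p = 0.00154 for Suclg1, -0.81 ± 0.16 (SE), adjusted p = 0.00168 for Idh3a and -0.68 ± 0.21 (SE), adjusted p = 0.0307 for Ogdh. That of Ogdh was lost when PTU-treated WT mouse 2 or 3, PTU-treated BATKO mouse 4 or TH-treated BATKO mouse 10 was left out (adjusted p up to 0.0736). For Cs the interaction was -0.37 ± 0.15 (SE), adjusted p = 0.11 and for Mdh2 -0.33 ± 0.18 (SE), adjusted p = 0.245, so that a difference in their response was not established. The estimates for Pdha1 (-0.01 ± 0.16), Pcx (0.09 ± 0.23) and Idh2 (0.06 ± 0.22) were within 1 SE of 0. Beside these values, 4 of the 6 brown adipocyte markers passed the interaction test with values above 0. Of the 2 white adipocyte markers, 1 passed with a value below 0, and no marker of the other lists passed. The part of these markers was not tested.

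The BATKO and WT mice of the TH experiment already differed before TH, in 70.3% of all genes under PTU and in 69.7% after 24 h of TH. Against these backgrounds, 5 of the 9 genes (55.6%) differed under PTU and 8 of 9 (88.9%) after TH. With so many genes called, the genotype and any difference in how the libraries of these mice were handled cannot be told apart, and the total counts were 12022144 to 14615534 in the PTU-treated WT mice and 14681206 to 18073627 in the PTU-treated BATKO mice. Both isocitrate dehydrogenases differed most, in opposite directions. Idh3a was 1549.7 ± 140.2 (SD, n = 4) CPM in WT and 672 ± 132 (SD, n = 5) CPM in BATKO mice on PTU (-1.21 ± 0.12 SE, adjusted p = 1.9e-10), while Idh2 was 54.0 ± 6.60 (SD, n = 4) and 125 ± 17.3 (SD, n = 5) CPM (1.21 ± 0.16 SE, adjusted p = 6.74e-08). After TH the Idh3a difference was -2.01 ± 0.12 (SE), adjusted p = 2.93e-15 and that of Idh2 1.27 ± 0.16 (SE), adjusted p = 2.74e-08. Groups did not overlap in any of these comparisons.

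Cs was lower in BATKO mice on PTU (-0.44 ± 0.11 SE, adjusted p = 0.000589) and after TH (-0.81 ± 0.11 SE, adjusted p = 9.81e-08). Mdh2 was higher on PTU (0.64 ± 0.13 SE, adjusted p = 7.71e-05) and after TH (0.31 ± 0.13 SE, adjusted p = 0.0359), and so was Pcx (0.41 ± 0.17 SE, adjusted p = 0.0312 on PTU and 0.50 ± 0.17 (SE), adjusted p = 0.00957 after TH). The groups overlapped for Mdh2 after TH and for Pcx under PTU and after TH. The Pcx call on PTU was lost without WT mouse 2 or 3 or BATKO mouse 2 or 3 (adjusted p up to 0.121), and that after TH without WT mouse 24 (0.0698). The Mdh2 call after TH was lost without WT mouse 24, 26 or 28 or BATKO mouse 7, 9 or 15 (adjusted p up to 0.182), without the filter on low counts (0.0578), in the fit of the groups compared alone (0.0786) and without the WT mouse with high muscle markers (0.0578), which is in neither of the groups compared. Under PTU, Fh1 passed the test without BATKO mouse 4 (-0.26, adjusted p = 0.00961) and Suclg1 without BATKO mouse 11 (0.33, adjusted p = 0.0418). After TH, Suclg1 (-0.77 ± 0.14), Ogdh (-0.55 ± 0.15) and Fh1 (-0.38 ± 0.09) were also lower in BATKO mice, each without overlap. Beside these values, 5 of the 6 brown adipocyte markers were lower and 1 higher in BATKO mice on PTU, and their sum was 10116 to 12176 CPM against 14802 to 16588 CPM in WT mice. Under PTU the 2 white adipocyte markers summed to 24.4 to 44.6 CPM in BATKO and 104 to 117 CPM in WT mice (Retn lower, Lep higher), and the stromal markers to 107 to 152 against 69.0 to 101 CPM (Col1a1 higher, and the other 2 of the 3 lower on average without passing the test), both without overlap. After TH, 5 of the 8 muscle markers were lower in BATKO mice, with sums of 1.40 to 285 CPM against 264 to 1137 CPM, and all 3 endothelial markers were higher under PTU and after TH. The white adipocyte markers then summed to 24.7 to 39.0 CPM in BATKO and 53.7 to 105 CPM in WT mice, without overlap (Retn lower). Of the brown adipocyte markers, Ucp1 and Cox8b were lower and Adipoq and Fabp4 higher in BATKO mice after TH, and their sums overlapped (9235 to 15409 against 13304 to 20282 CPM). The immune gene Cd68 and the stromal gene Pdgfra were also lower and Col1a1 higher in BATKO than in WT mice after TH. Of the erythroid markers, Hba-a1 was higher and Hbb-bs lower in BATKO mice both under PTU and after TH. The part of these markers was not tested. In the other experiments these genes did not pass the test between the genotypes without a stimulus, as Idh3a differed by 0.22 ± 0.14 at 30 °C and 0.11 ± 0.11 on chow, and Idh2 by 0.15 ± 0.16 and -0.34 ± 0.22 (SE).

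Cold exposure moved the isocitrate dehydrogenases in opposite directions, and in CTRL mice 4 of the 5 other cycle genes rose. In these mice, 6 of the 9 genes rose and 1 fell at 4 °C compared with 30 °C, where 49.1% of all genes passed the test, and all 7 remained past the threshold when any 1 mouse was left out. Idh3a rose most. It was 1079.6, 1310.1, 1219.7 and 1505 CPM at 30 °C and 3972, 3974 and 3775 CPM at 4 °C, which is 3.06-fold (1.61 ± 0.16 SE, adjusted p = 9.71e-07). Idh2 was 137, 138, 135 and 129 CPM at 30 °C and 69.8, 57.0 and 42.0 CPM at 4 °C, and was the gene that fell (-1.26 ± 0.19 SE, adjusted p = 5.14e-05). For both genes the groups did not overlap.

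Mdh2 and Ogdh had the next largest rises. Mdh2 was 227, 295, 266 and 310.2 CPM at 30 °C and 602, 629.6 and 569.7 CPM at 4 °C (1.13 ± 0.18 SE, adjusted p = 8.86e-05). Ogdh was 1069, 1348, 1278 and 1662 CPM at 30 °C and 3526, 2753 and 2473 CPM at 4 °C (1.12 ± 0.19 SE, adjusted p = 0.000112). In both, each mouse in the cold stood above each mouse at 30 °C. Cs rose by 0.79 ± 0.18 (SE), adjusted p = 0.00195, from 1649.5 ± 306 (SD, n = 4) to 2855 ± 342 (SD, n = 3) CPM, and Suclg1 by 0.59 ± 0.16 (SE), adjusted p = 0.00552, from 433 ± 50.1 (SD, n = 4) to 651 ± 78.7 (SD, n = 3) CPM. Fh1 was 164 to 212 CPM at 30 °C and 203 to 244 CPM at 4 °C and did not pass the test (0.32 ± 0.19 SE, adjusted p = 0.171).

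Of the genes of pyruvate entry, Pdha1 passed the test in the cold and Pcx did not. Pdha1 was 559, 673, 791 and 937 CPM at 30 °C and 1248, 1044 and 1239 CPM at 4 °C and rose (0.67 ± 0.17 SE, adjusted p = 0.00353). Pcx was 122, 145, 129 and 136 CPM at 30 °C and 203, 151 and 111 CPM at 4 °C, with overlapping groups (0.22 ± 0.18 SE, adjusted p = 0.301). The 3 values of Pcx in the cold were spread over a wider range than the 4 at 30 °C. The difference between Pdha1 and Pcx in their response was not tested. The 9 genes together made up 1.19 to 1.52% of nuclear counts at 30 °C and 1.87 to 2.12% at 4 °C.

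**Figure D2:**
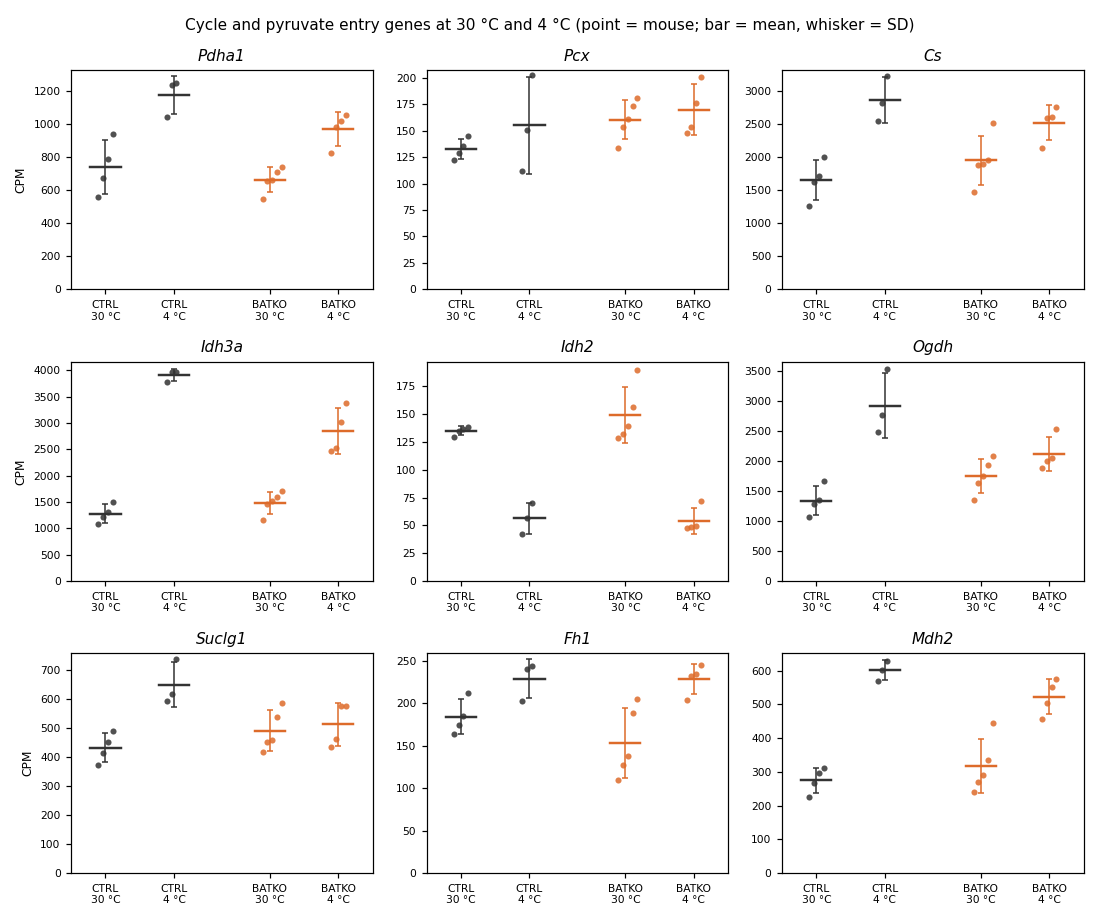
CPM (TMM-normalized, linear axis from 0) of each of the 9 genes in CTRL (black) and BATKO (orange) mice at 30 °C and 4 °C. Each point is a mouse, the bar is the mean and the whisker the SD. Mean Idh3a was 1279 CPM at 30 °C and 3907 CPM at 4 °C in CTRL mice, and mean Idh2 135 and 56.3 CPM.

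In BATKO mice, 4 of the 9 genes rose and 1 fell in the cold, where 40.3% of all genes passed the test. Idh3a was 1157, 1457, 1529, 1702 and 1594 CPM at 30 °C and 2526, 3017, 3384 and 2475 CPM at 4 °C (0.94 ± 0.14 SE, adjusted p = 8.84e-05). Idh2 was 132, 189.6, 139, 156 and 128 CPM and 49.4, 48.5, 71.8 and 47.8 CPM (-1.45 ± 0.17 SE, adjusted p = 7.41e-06). Neither gene overlapped between the temperatures. Mdh2 (0.72 ± 0.16 SE, adjusted p = 0.00192), Fh1 (0.58 ± 0.16 SE, adjusted p = 0.0106) and Pdha1 (0.55 ± 0.15 SE, adjusted p = 0.00744) also rose. Without the mice over 1500 CPM of muscle markers, which left 3 BATKO mice at each temperature, Idh3a (0.77, adjusted p = 0.00818) and Idh2 (-1.73, adjusted p = 0.000124) kept their calls, while Mdh2 (0.55, adjusted p = 0.0594), Fh1 (0.38, adjusted p = 0.162) and Pdha1 (0.44, adjusted p = 0.122) did not pass the test. In CTRL mice, the same omission left 2 mice at 30 °C and all 7 calls remained. Ogdh was 1352, 1934, 1634, 2085 and 1751 CPM at 30 °C and 1883, 2044, 2522 and 1992 CPM at 4 °C (0.27 ± 0.16 SE, adjusted p = 0.202), and Suclg1 419.8 to 589 and 436 to 579 CPM (0.06 ± 0.14 SE, adjusted p = 0.746). Groups overlapped for both. Cs did not pass the test (0.37 ± 0.16 SE, adjusted p = 0.0777), but did without mouse 16 at 30 °C (0.48, adjusted p = 0.0253), and Pcx was 0.08 ± 0.15.

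All 8 muscle markers were lower on average in the cold in both genotypes, and none of them passed the test. Their sum in CTRL mice was 0.719 to 4599.6 CPM at 30 °C and 137 to 612 CPM at 4 °C, and in BATKO mice 0.87 to 8194 and 5.74 to 1635 CPM. Of the brown adipocyte markers, 5 rose and Adipoq fell in CTRL mice, and the sum was 6202 to 7766 CPM at 30 °C and 24937 to 30582 CPM at 4 °C. In BATKO mice 4 rose, and the sum was 6387 to 7935 CPM at 30 °C and 17535 to 26192 CPM at 4 °C. Both erythroid markers were higher on average in the cold, with sums of 150.2 to 277 and 659 to 1426 CPM in CTRL mice and of 145 to 437 and 691 to 955 CPM in BATKO mice. Of the immune markers, Ptprc and Lyz2 fell in CTRL mice, with sums over the list of 36.3 to 65.8 CPM at 30 °C and 22.8 to 30.7 CPM at 4 °C. In both genotypes the white adipocyte gene Lep fell and the stromal gene Acta2 rose, and of the endothelial genes Kdr rose in CTRL and Cdh5 fell in BATKO mice. The part of the brown and white adipocyte, erythroid, immune, endothelial and stromal markers was not tested.

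Between the genotypes, none of the 9 genes passed the test at 4 °C, where 2.16% of all genes did, or at 30 °C, where 0.00754% did. At an unadjusted p under 0.05 there were 3 of the 9 at 4 °C, against 2194 of all 13267 genes, and 1 at 30 °C, against 1209 of 13267. DESeq2 called 1 of the 9 at 4 °C and 0 at 30 °C. In the cold, 8 of the 9 estimates were below 0. So were those of 35 of 36 nuclear subunits of complex I, 10 of 10 other cycle subunits, 11 of 13 other genes of pyruvate entry and 13 of 19 genes of mitochondrial fatty acid oxidation. Of 17 genes of cytosolic and side reactions, 7 were below 0 and 10 above. Idh3a was lower in each BATKO mouse (2475 to 3384 CPM) than in each CTRL mouse (3775 to 3974 CPM), with -0.45 ± 0.16 (SE), adjusted p = 0.154 in edgeR and -0.48 (adjusted p = 0.0375) with DESeq2. Suclg1 was also lower without overlap (-0.34 ± 0.16 SE, adjusted p = 0.287), and Ogdh was 1883 to 2522 CPM in BATKO and 2473 to 3526 CPM in CTRL mice (-0.47 ± 0.19 SE, adjusted p = 0.208). The interaction of temperature and genotype was called for 1.12% of all genes and for 0 of the 9 in edgeR. At an unadjusted p under 0.05 there were 3 of the 9, against 2471 of all 13267 genes. The lowest estimates were those of Ogdh (-0.85 ± 0.25 SE, adjusted p = 0.0881), Idh3a (-0.67 ± 0.22 SE, adjusted p = 0.108) and Suclg1 (-0.53 ± 0.21 SE, adjusted p = 0.187), none of which passed the test in edgeR. Of 36 nuclear subunits of complex I, 32 were also below 0 in this interaction and 4 above (median -0.47), and none was called. DESeq2 called Ogdh (adjusted p = 0.018) and Idh3a (adjusted p = 0.0289), so that these calls depend on the tool. With edgeR, Ogdh passed the test without CTRL mouse 5 at 4 °C (-0.96, adjusted p = 0.0397). Beside these values, 1 of the 2 white adipocyte markers was higher and 1 of the 3 endothelial markers lower in BATKO mice at 4 °C. No other marker passed the test there, and all 8 muscle markers were higher on average. The brown adipocyte sums were 17535 to 26192 CPM in BATKO and 24937 to 30582 CPM in CTRL mice. In the interaction, 1 endothelial marker was called, below 0. The part of these markers was not tested.

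**Figure D3:**
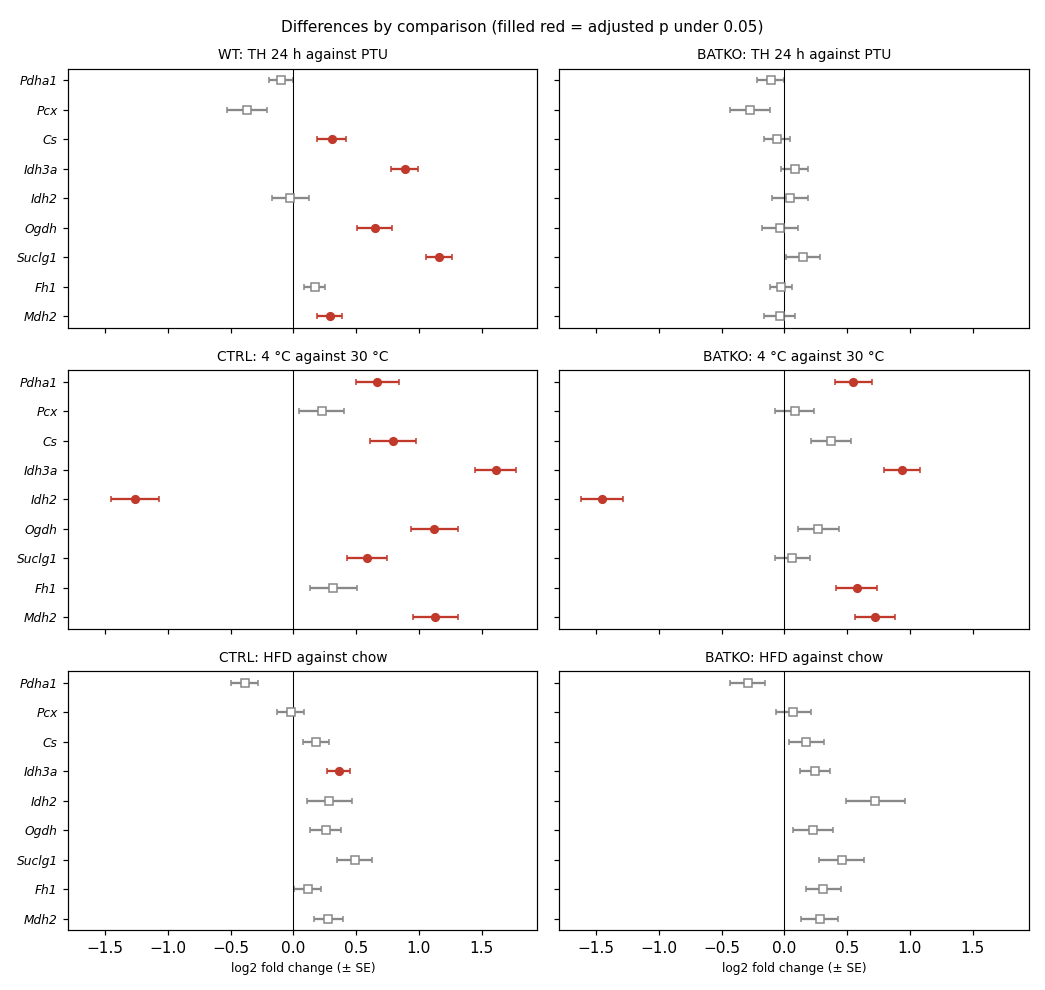
Log2 fold changes (points) with their SE (whiskers) of the 9 genes in 6 comparisons, on one horizontal scale, where filled red circles passed the test and open grey squares did not. In WT mice after TH the values run from -0.37 (Pcx) to 1.16 (Suclg1), and in CTRL mice in the cold from -1.26 (Idh2) to 1.61 (Idh3a).

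In the diet experiment few genes passed the test. In CTRL mice on HFD, Idh3a was the 1 gene of the 9 that passed the test, against 3.94% of all genes. It was 1654, 1551, 1664 and 1776 CPM on chow and 1873, 2233, 2156 and 2267 CPM on HFD, with no overlap (0.36 ± 0.09 SE, adjusted p = 0.0463). This call was near the threshold, and it was lost when any 1 mouse but HFD mouse 7 was left out (adjusted p up to 0.137), without the mitochondrial genes (0.0546), without the filter on low counts (0.0611), in the fit of the 2 groups alone (0.0988) and without chow mouse 3, which had high muscle markers (0.0765). Suclg1 (715, 602, 684 and 615 CPM on chow and 823, 1184, 746 and 917 CPM on HFD) and Pdha1 (851, 963, 748 and 760.1 CPM and 675, 711, 572 and 579 CPM) did not overlap between the diets either, with 0.49 ± 0.14 (SE), adjusted p = 0.0653 and -0.39 ± 0.11 (SE), adjusted p = 0.0601. Both passed the test with DESeq2 (adjusted p = 0.0163 for Suclg1 and 0.013 for Pdha1). With edgeR, Pdha1 passed without chow mouse 3 (-0.45, adjusted p = 0.0398) or HFD mouse 9 (-0.46, adjusted p = 0.0475), and Suclg1 without HFD mouse 10 (0.56, adjusted p = 0.0462). Pdha1 was thus higher on average in the cold and lower on HFD, while Suclg1 was higher in both. Pcx was 126 to 161 CPM on chow and 117 to 146 CPM on HFD (-0.02 ± 0.11 SE, adjusted p = 0.931). Beside these values, the 3 stromal markers summed to 153 to 197 CPM on chow and 216 to 288 CPM on HFD (1 rose, Col1a1), and the immune markers to 33.8 to 40.04 and 47.2 to 163 CPM (all 4 tested were higher on average, and none passed the test), both without overlap. Of the brown adipocyte markers 1 rose (Cox8b), with sums of 8115 to 9813 and 9772 to 11872 CPM, and all 8 muscle markers were lower on average, with sums of 0.847 to 2144 and 0.889 to 547 CPM. The part of these markers was not tested.

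In BATKO mice, with 2 mice on chow and 3 on HFD, none of the 9 passed the test (0 with DESeq2 as well), against 0.0696% of all genes. At an unadjusted p under 0.05 there were 3 of the 9, against 1996 of all 12932 genes. Idh2 was 99.7 and 119.6 CPM on chow and 128, 215 and 199.7 CPM on HFD (0.72 ± 0.23 SE, adjusted p = 0.198), and Pdha1 727 and 647 and 534, 592 and 558 CPM (-0.29 ± 0.14 SE, adjusted p = 0.336). Beside these values, the marker sums on chow and HFD did not overlap for brown adipocyte (8977 to 10317 and 11609 to 12879 CPM), immune (96.9 to 126 and 32.4 to 84.4 CPM) and erythroid markers (422 to 443 and 519 to 1082 CPM). No marker passed the test in these mice, and the part of the markers was not tested. No gene passed the test between the genotypes on HFD (0% of 12932 genes, with 691 at an unadjusted p under 0.05 and 9 with DESeq2) or on chow (0%, with 1024 and 33), and the interaction of diet and genotype was called for 0% of genes (740 at an unadjusted p under 0.05 and 0 with DESeq2). None of the 9 had an unadjusted p under 0.05 in these 3 comparisons.

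**Figure D4:**
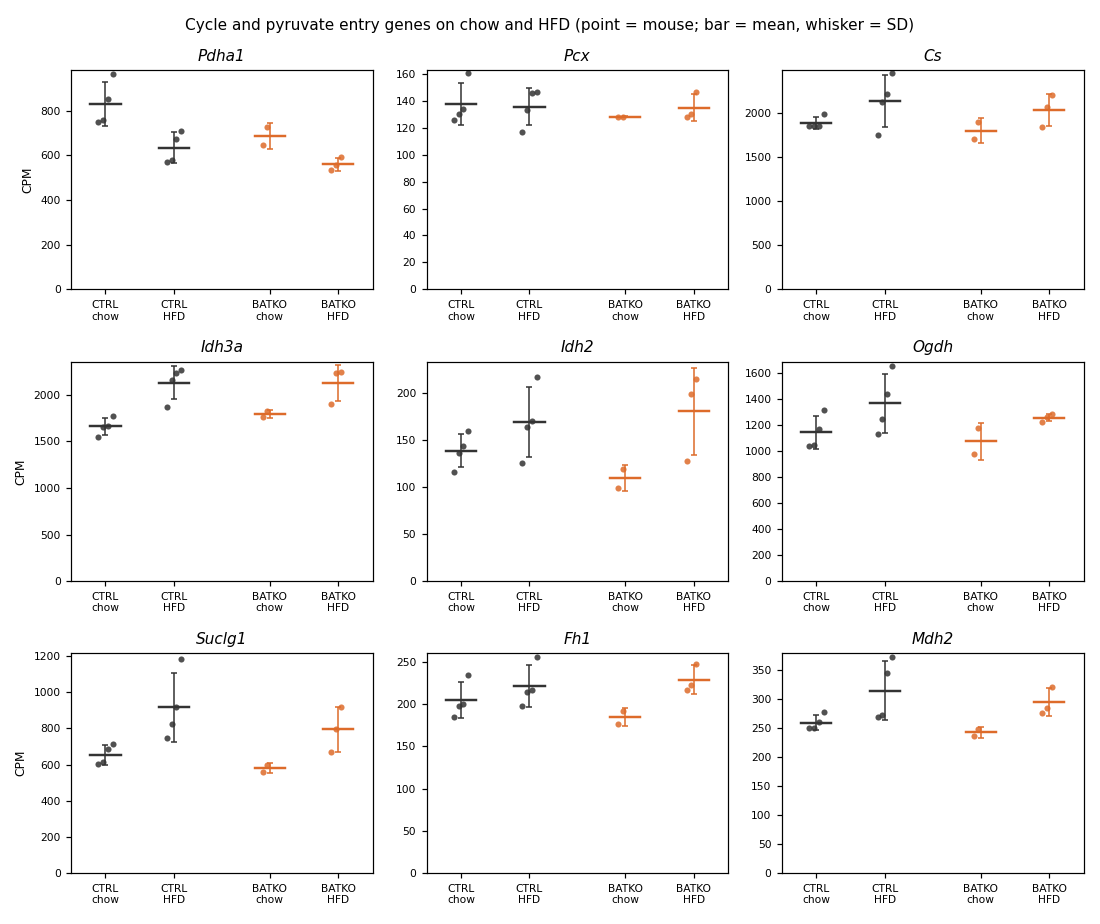
CPM (TMM-normalized, linear axis from 0) of each of the 9 genes in CTRL (black) and BATKO (orange) mice on chow and HFD. Each point is a mouse, the bar is the mean and the whisker the SD. Mean Idh3a was 1661 CPM on chow and 2132 CPM on HFD in CTRL mice, and mean Pdha1 831 and 634 CPM.

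The balance of both isocitrate dehydrogenases can be followed mouse by mouse. The log2 ratio of Idh2 to Idh3a in CPM was -5.20 to -4.49 in WT mice on PTU and -6.02 to -5.55 after 24 h of TH. It was -2.68 to -2.14 in BATKO mice on PTU and -3.06 to -1.996 after TH. In the temperature experiment it was -3.54 to -2.98 at 30 °C and -6.49 to -5.83 at 4 °C in CTRL mice, and -3.63 to -2.94 and -5.96 to -5.56 in BATKO mice. On chow it was -3.74 to -3.38 and on HFD -4.10 to -3.36 in CTRL mice. Temperature shifted this ratio without overlap in both genotypes, and so did 24 h of TH in WT mice. The BATKO mice with and without TH overlapped, as did the 2 diets in CTRL mice. Ucp1, the uncoupling protein of brown adipocytes, was 5265 ± 686 (SD, n = 4) CPM in WT mice on PTU, 1329 ± 345 (SD, n = 5) in BATKO mice on PTU, 736 ± 473 (SD, n = 4) in CTRL mice at 30 °C and 15563 ± 1939.5 (SD, n = 3) at 4 °C.

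**Figure D5:**
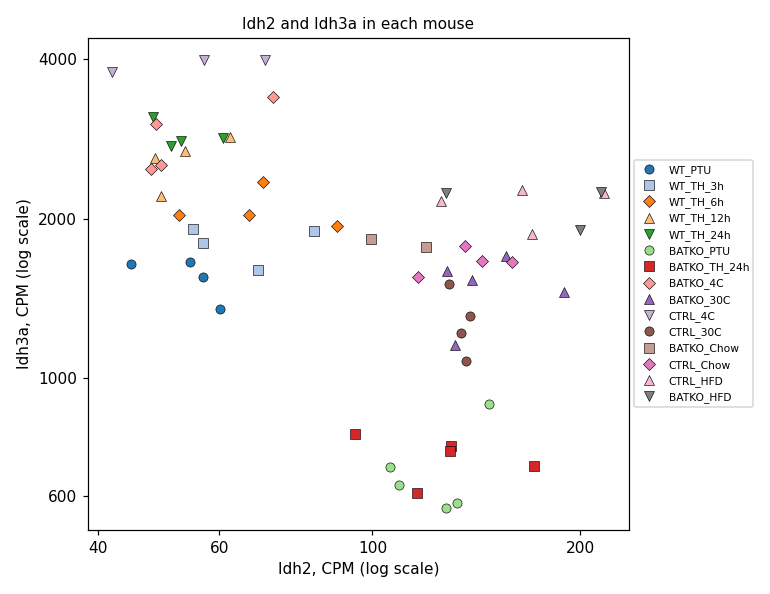
Idh3a against Idh2 in CPM in each of the 59 mice, both axes logarithmic, with a colour and symbol for each of the 15 groups, where levels of different experiments were normalized separately. The CTRL mice at 4 °C lie at the upper left (Idh2 42.0 to 69.8, Idh3a 3775 to 3974 CPM) and the BATKO mice of the TH experiment at the lower right (on PTU, Idh2 106 to 148, Idh3a 571 to 895 CPM).

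Of the 41 other genes of the pathway that were listed by role, 40 could be tested (Ogdhl was too low). In WT mice after 24 h of TH, 13 rose and 6 fell (47.5%, against 32.7% of all genes). By role, 4 of the 13 other genes of pyruvate entry rose and 1 fell, 2 of 10 other cycle subunits rose, and 7 of 17 genes of cytosolic and side reactions rose and 5 fell. The 3 that rose most were Got1 (cytosolic aspartate aminotransferase, 3.31 ± 0.26 SE, adjusted p = 6.73e-09), Me3 (mitochondrial malic enzyme, 1.26 ± 0.21 SE, adjusted p = 0.000117) and Got2 (the mitochondrial aspartate aminotransferase, 1.07 ± 0.27 SE, adjusted p = 0.00434). The 3 that fell most were Pck1 (cytosolic PEP carboxykinase, -2.49 ± 0.47 SE, adjusted p = 0.00034), Slc25a1 (the citrate carrier, -1.20 ± 0.16 SE, adjusted p = 7.93e-06) and Pdk1 (a kinase that inhibits pyruvate dehydrogenase, -1.19 ± 0.18 SE, adjusted p = 3.48e-05). Got1 was 11.5 ± 1.47 (SD, n = 4) CPM on PTU and 114 ± 29.3 (SD, n = 4) CPM at 24 h. The mitochondrial pyruvate carrier genes rose, Mpc1 by 0.34 ± 0.12 (SE), adjusted p = 0.0338 and Mpc2 by 0.69 ± 0.12 (SE), adjusted p = 0.000197. The pyruvate dehydrogenase kinases Pdk2 (0.18 ± 0.15 SE, adjusted p = 0.371) and Pdk4 (0.45 ± 0.29 SE, adjusted p = 0.246) did not pass the test. In BATKO mice 0 of the 40 passed it after TH, and the interaction was called with 1 higher and 6 lower in BATKO mice (17.5%, against 12.3% of all genes).

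In the cold, 22 of these 40 genes rose and 4 fell in CTRL mice (65%, against 49.1% of all genes), and 22 rose and 4 fell in BATKO mice (65%, against 40.3%). In CTRL mice 7 of the 13 other genes of pyruvate entry and 9 of 10 other cycle subunits rose, and none of these fell. The 3 that rose most were Got1 (3.18 ± 0.53 SE, adjusted p = 0.000125), Mpc2 (2.36 ± 0.22 SE, adjusted p = 4.14e-07) and Pdhx (the E3-binding subunit of the pyruvate dehydrogenase complex, 1.89 ± 0.16 SE, adjusted p = 1.97e-07). Among those that fell were Pck2 (the mitochondrial PEP carboxykinase, -1.84 ± 0.30 SE, adjusted p = 8.82e-05) and Got2 (-1.02 ± 0.34 SE, adjusted p = 0.02). Mpc2 was 154 ± 37.9 (SD, n = 4) CPM at 30 °C and 793 ± 63.0 (SD, n = 3) CPM at 4 °C, while Mpc1 rose by 1.30 ± 0.19 (SE), adjusted p = 3.56e-05. Pdk2 (0.34 ± 0.22 SE, adjusted p = 0.213) and Pdk4 (-0.11 ± 0.25 SE, adjusted p = 0.735) did not pass the test. Got2 thus rose with TH in WT mice and fell in the cold in CTRL mice. Between the genotypes at 4 °C, 1 of the 40 differed, Pck1, which was 750.1 ± 58.6 (SD, n = 3) CPM in CTRL and 1728 ± 229 (SD, n = 4) CPM in BATKO mice (1.20 ± 0.20 SE, adjusted p = 0.00839). On HFD, 0 of the 40 rose and 4 fell in CTRL mice (10%, against 3.94% of all genes), namely Acly (ATP citrate lyase, -1.67 ± 0.22 SE, adjusted p = 0.00125), Me1 (cytosolic malic enzyme), Pdk1 and Slc25a1, which are named here after their values were seen.

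Lists of neighbouring mitochondrial pathways are given for reference. Of 36 nuclear subunits of complex I, 13 rose and none fell in WT mice at 24 h of TH (36.1%, against 32.7% of all genes, median log2 fold change 0.21), and 32 rose and none fell in CTRL mice in the cold (88.9%, against 49.1%, median 0.90). Of 19 genes of mitochondrial fatty acid oxidation, none rose and 6 fell at 24 h of TH (31.6%, median -0.19), and 11 rose and none fell in the cold (57.9%, median 0.65), against the same shares of all genes. The 9 genes of the cycle and pyruvate entry had medians of 0.29 and 0.67. Idh3a, which passed the test in 9 of 18 tests, the most of the 9 genes (the 3 interactions counted and the comparisons of successive times left out), was matched against 12088 genes by the root mean square difference of the log2 fold changes over 8 comparisons (WT at 3, 6, 12 and 24 h, BATKO at 24 h, both cold responses and HFD in CTRL mice). The nearest were Mtx1 (0.12), Ghdc (0.12) and Mcrip2 (0.12), where the value is the typical distance in log2 units.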

How the data were processed

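RNA-seq was run on BAT of 59 mice. The authors sequenced total RNA libraries (Lexogen SENSE) on a NextSeq 500, aligned the reads to mm10 (GRCm38) with Bowtie2 (version 2.3.2.2 in the submitters' processing notes), removed alignments with a mapping quality below 10, and deposited whole-number read counts per gene, made with HTSeq-count, in 1 table per experiment. The annotation release and strand setting are not given in the sources used here. Bowtie2 does not split reads over introns, so reads over exon junctions can be lost.

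From these counts, R 4.3.3 with edgeR 4.0.16 (limma 3.58.1) was used for TMM normalization and the quasi-likelihood F test, with Benjamini-Hochberg adjustment over all genes with a mean normalized count above 10, a threshold of 0.05 and no fold limit. One fit held the 20 WT mice of the TH time course, comparisons with BATKO mice on PTU or TH used a fit of 30 mice, WT and BATKO together, and further fits held the 16 mice of the temperature and the 13 mice of the diet experiment, with group means as coefficients and interactions as differences of differences. The SE is the log2 fold change divided by the square root of F. Mice were grouped by their labels. The p-values set a difference between groups against the spread between mice within groups. They do not account for any difference in housing or processing between groups. No pair of the 91 pairs of mice within groups was alike within sampling noise (lowest chi-square per degree of freedom 7.47). The scripts were tested on simulated counts.

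Members and lists were chosen with earlier results of these data known. Named beyond the 9 members are Pdk2, Pdk4, Mpc1 and Mpc2, and up to 3 rising and 3 falling genes of the pathway list with the largest fold change in WT at 24 h, CTRL in the cold and between genotypes at 4 °C. The values of 1 gene that this rule names are not reported here. Alternatives were DESeq2 1.42.0, RLE size factors, no filter or a mean above 50, omission of mitochondrial genes, other sets of mice in the fit, omission of each mouse, a replicate block, and, added after the data were seen, omission of 7 mice with high muscle markers. Replicate numbers were shared by WT and BATKO mice on PTU for mice 2, 3 and 4.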

Additional observations from a re-analysis of the deposited data

Results flagged for a closer look

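In 4 of the 108 pairs of a gene and a group of 4 or 5 mice, 1 mouse stood apart from its group by Dixon's criterion, and chance alone gives about 1 in 20. Cs was 1832 CPM in WT mouse 17 at 6 h of TH, against 1573 to 1604 CPM in the others. Mdh2 was 351 CPM in WT mouse 28 at 24 h, against 401 to 411 CPM in the others. Idh2 was 71.8 CPM in BATKO mouse 11 at 4 °C, against 47.8 to 49.4 CPM in the others, and the muscle markers of this mouse summed to 1635 CPM. Cs was 1986 CPM in CTRL mouse 1 on chow, against 1849 to 1859 CPM in the others.

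The response to 24 h of TH differed between WT and BATKO mice by the interaction test, on the log2 scale and as BATKO minus WT, for Suclg1 (-1.01), Idh3a (-0.81) and Ogdh (-0.68). The genotypes also differed in 70.3% of all genes under PTU.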

How the results depend on the processing

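Counts are of the 9 genes that passed the test, and no gene that passed the test changed direction under any alternative run. Estimates near 0 did change sign when 1 mouse was left out, for example Pcx in the cold in CTRL mice (-0.06 to 0.41). RLE size factors left all 21 counts within 1.5 times. With DESeq2 the count became 1 between 6 h and 12 h of TH, 1 between genotypes at 4 °C, 2 for the interaction of temperature and genotype, and 3 for HFD in CTRL mice. Without the filter it became 3 at 24 h in WT mice, 0 between 12 h and 24 h, 2 for HFD in CTRL mice and 1 (Idh2) for HFD in BATKO mice, and with a mean above 50 it became 2 for HFD in CTRL mice. In the fit of all 30 mice it became 0 at 3 h and 0 between 12 h and 24 h, in the fit of the groups compared alone 0 between 12 h and 24 h and 0 for HFD in CTRL mice, and without mitochondrial genes 0 for HFD in CTRL mice. Without the mice with high muscle markers it became 2 for the cold in BATKO mice. The cause of these changes was not tested.

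With 1 mouse left out (67 fits), the count was 0 to 1 at 3 h, 3 to 4 at 6 h, 4 to 5 at 12 h, 3 to 4 at 24 h and 0 to 1 between 12 h and 24 h in WT mice. It was 2 to 3 for the interaction of TH and genotype, 4 to 6 and 6 to 8 between genotypes under PTU and after TH, 7 for the cold in CTRL mice, 5 to 6 in BATKO mice, 0 to 1 for the interaction of temperature and genotype, and 0 to 1 for HFD in CTRL mice. In the other comparisons it stayed at 0. Mdh2 passed the test at 6 h without mouse 13 (adjusted p = 0.0206) or with DESeq2 (0.0315), and at 12 h without mouse 23 (0.0368) or with DESeq2 (0.0363). Leaving out 1 BATKO mouse on chow leaves a lone mouse, assumed to vary like the other groups.

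With a replicate block, in the 6 mice numbered 2, 3 and 4 under PTU, 4 genes differed between genotypes, and 5 did in the same 6 mice without the block and in all mice. Cs was -0.37 with the block (adjusted p = 0.0657) and -0.37 in the same mice without it (adjusted p = 0.0433). The numbers did not pair the mice, since same-numbered mice correlated at 0.01, -0.25 and -0.06.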
